A study of Mus musculus with 4 samples.

Results

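Annotated cassette exons are exons that the gene models show both spliced in and skipped. Here a cassette is a triplet of junctions in 1 gene: an upstream junction into the skipped stretch, a downstream junction out of it, and a junction that passes over it, all 3 marked as known in the deposited junction tables. Of 2082 such triplets, the 753 with at least 10 reads over the 3 junctions in every library were kept, covering 741 distinct stretches in 546 genes. They were selected on read totals alone, so a total is no finding. An included transcript can add reads at the upstream and the downstream junction, and a skipped one only at the junction that passes over. The balance of inclusion against skipping thus had some part in the choice. Triplets of any status with the same read minimum numbered 60951.

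The RNA came from total thymocytes of 2 hnRNP L knockout (KO) mice and 2 wild-type (WT) mice, 1 library per mouse. The labels list 1 mixed background for both groups, naming C57BL/6, an LckCre transgene, the Gt(ROSA)26Sortm4(ACTB-tdTomato,-EGFP)Luo reporter and CD45.1. The Lck promoter drives Cre in the T lineage, so thymic cells of other lineages and thymocytes in which Cre has not yet acted keep an intact gene; the sources used here do not give age, sex or the deleted part of Hnrnpl. The labels name separate mice, so the spread between libraries of a group includes differences between animals.

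A cassette exon is included when splicing joins it to both neighbours and skipped when the neighbours are joined directly. hnRNP L is an RNA-binding protein that prefers CA-rich RNA and can promote or block the use of a nearby exon, and the variable exons of the CD45 gene Ptprc are its best-known target in T cells. Skipping an exon whose length is a multiple of 3 keeps the downstream reading frame, whereas other lengths shift it.

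The exons below carry the results described further on, and show what the transcript gains when each is included. They were chosen after their values were seen: Dntt has the most junction reads, Hk1, Gpbp1, Tnfrsf9 and Zfp207 had more inclusion in KO, Rreb1, Mon2 and Lgals9 had less, and Tgfbr2 and Cd6 are receptors on T cells. Sequences are those of GENCODE M21 transcripts in build GRCm38, written 5' to 3' on the transcript strand, and capitals mark ACACAC or CACACA, CA repeats of the kind hnRNP L prefers.
Dntt: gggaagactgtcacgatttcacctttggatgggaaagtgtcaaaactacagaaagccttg
Hk1: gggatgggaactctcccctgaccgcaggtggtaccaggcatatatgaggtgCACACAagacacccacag
Gpbp1: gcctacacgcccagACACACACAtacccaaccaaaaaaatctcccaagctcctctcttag
Tnfrsf9: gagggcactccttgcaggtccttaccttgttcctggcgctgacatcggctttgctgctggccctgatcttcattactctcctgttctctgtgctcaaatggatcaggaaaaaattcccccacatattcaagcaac
Zfp207: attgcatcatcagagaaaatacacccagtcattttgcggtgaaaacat
Tgfbr2: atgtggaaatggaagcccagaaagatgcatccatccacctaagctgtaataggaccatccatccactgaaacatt
Cd6: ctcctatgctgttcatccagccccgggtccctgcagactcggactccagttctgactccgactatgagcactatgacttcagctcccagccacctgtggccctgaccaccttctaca
Rreb1: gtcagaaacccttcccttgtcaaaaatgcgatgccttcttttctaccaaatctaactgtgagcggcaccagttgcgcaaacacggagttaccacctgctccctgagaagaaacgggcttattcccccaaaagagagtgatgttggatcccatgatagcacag
Mon2: atccaactatttgcaccg
Lgals9: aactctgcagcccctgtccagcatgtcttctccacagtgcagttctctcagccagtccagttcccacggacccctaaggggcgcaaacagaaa

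In GRCm38 these coding exons lie at chr19:41058567-41058626 on the plus strand (Dntt), chr10:62291975-62292043 on the minus strand (Hk1), chr13:111447896-111447955 on the minus strand (Gpbp1) and chr4:150935422-150935556 on the plus strand (Tnfrsf9). The Zfp207 exon lies at chr11:80389774-80389821 on the plus strand, the Tgfbr2 exon at chr9:116158271-116158345 on the minus strand and the Cd6 exon at chr19:10792828-10792944 on the minus strand. Rreb1 has its exon at chr13:37941543-37941704 on the plus strand, Mon2 at chr10:123009913-123009930 on the minus strand and Lgals9 at chr11:78969714-78969806 on the minus strand. Of the 10 exons, the motif occurs in Hk1 and Gpbp1 alone.

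The libraries differed in depth and in how much Hnrnpl they held. Mapped reads numbered 69061265 and 75485061 in KO and 99782558 and 122619310 in WT, per the file headers, and junction reads numbered 3302915 and 3515308 in KO and 4759678 and 6146421 in WT. Hnrnpl had 467 and 208 CPM (read counts scaled to library size) in KO, against 854 and 813 CPM in WT, so KO replicates 1 and 2 kept 56% and 25% of the WT mean; the log2 fold change was -1.30 (SE 0.42) with an adjusted p of 0.486 in edgeR's quasi-likelihood test. Markers of CD4/CD8 double-positive thymocytes were the most abundant of the lists examined, with summed levels of 14660 and 10643 CPM in KO and 14557 and 14325 CPM in WT. Double-negative markers summed to 528 and 894 CPM in KO and 535 and 714 CPM in WT, mature single-positive markers to 703 and 488 CPM in KO and 638 and 662 CPM in WT, and both groups overlapped in each. In erythroid markers KO replicate 1 stood apart, with 287 CPM, against 60.0 CPM in KO replicate 2 and 86.9 and 78.2 CPM in WT. Myeloid markers lay between 190 and 198 CPM in KO and between 170 and 188 CPM in WT. B cell markers lay between 31.5 and 38.8 CPM in KO and between 35.8 and 36.1 CPM in WT. Stromal and epithelial markers lay between 230 and 276 CPM in KO and between 225 and 227 CPM in WT. By single gene, both KO libraries were higher in 3 of 6 myeloid markers. The same held for 1 marker each of the double-positive, erythroid and stromal lists. Both KO libraries were lower in 2 of 7 double-positive and 2 of 6 double-negative markers. No other listed marker separated the groups. Values were present for 5 of 7 listed erythroid and 5 of 6 listed B cell markers, and their sums cover those alone. In the other lists every marker had values. No marker with values was at 0 in every library. The part of cell makeup in the inclusion values was not tested, and in RNA from whole thymocytes a shift in splicing within cells and a shift in the mix of cells cannot be told apart.

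Inclusion is given in percent, as the mean of the 2 inclusion junctions over that mean plus the skipping reads. Reads at the 2 inclusion junctions were over 10-fold apart in 113 cassettes and within 3-fold in 424. Where they lie far apart, the percentage depends on which junction is counted and need not be the inclusion of a single exon. In bins of 10 points, cassettes were most numerous in the lowest and the highest bin. The following classes, on the average over the 4 libraries, are of unequal width. In them 35 were never included, 125 were included at up to 10% and 188 at 10 to 50%. Another 188 were included at 50 to 90% and 151 at 90% or more with some skipping, and 66 were never skipped. The median number of reads behind a value was 37 and 38 in KO and 50 and 69 in WT. No skipping read was found for 153 and 152 cassettes in KO and for 136 and 120 in WT, and no inclusion read for 79 and 71 in KO and 65 and 56 in WT. A 0 gives only an upper limit on the rarer form, which depends on the reads behind it. Triplets just outside the read minimum, with 9 reads in their lowest library, numbered 28. Their median inclusion was 57.6% in KO and 51.1% in WT, and that of the 35 with 8 reads was 51.3% and 41.1%. Just inside it, the 35 with 10 reads had medians of 29.5% in KO and 25.5% in WT. The 22 with 11 reads had 59.3% and 34.1%, so these medians also differed widely inside the minimum.

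**Figure D1:**
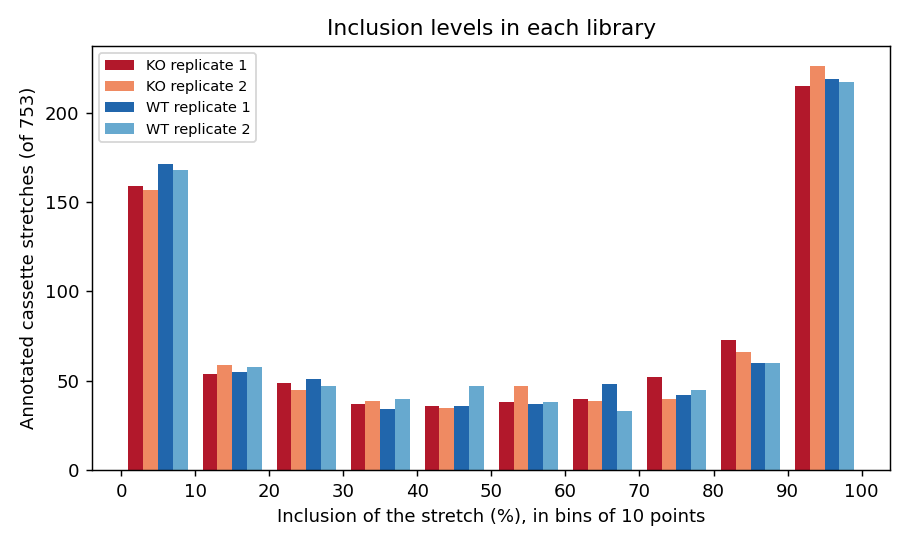
Number of annotated cassette stretches (vertical axis) in bins of 10 percentage points of inclusion (horizontal axis), 1 bar per library, for all 753. All 4 libraries have their tallest bars in the lowest and the highest bin.

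Among the single coding exons, a length that keeps the reading frame was the common case. Of the 753 cassettes, 724 matched exons of GENCODE M21 by length and flanking introns, 627 as a single exon and 97 as a run of 2 to 5 exons, and 29 matched none. Single exons had a median length of 96 nt, ranged from 9 to 5916 nt, and included 114 of 51 nt or less. By position, 529 stretches were coding, 84 part coding, 99 in the 5' UTR, 3 in the 3' UTR and 9 in noncoding transcripts. Of 451 single coding exons, 366 had a length divisible by 3 (81.2%). The share differed along the inclusion scale, with 22 of 22 exons among those never included, 92.4% of 66 at up to 10%, 84.0% of 106 at 10 to 50%, 78.3% of 120 at 50 to 90%, 67.7% of 99 at 90% or more, and 86.8% of 38 never skipped. Median length was 57 nt in the never included exons and 122 nt in those never skipped.

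**Figure D2:**
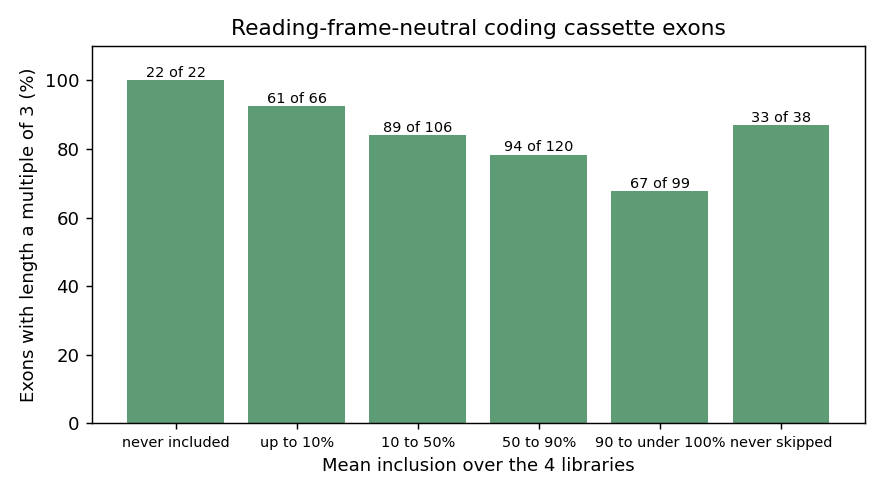
Percentage of single coding cassette exons whose length is a multiple of 3 (bars, axis from 0), by mean inclusion over the 4 libraries, with the counts above each bar. The share is 100% in exons never included and 67.7% in exons included at 90% to under 100%.

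The gene with the most cassettes was Arpp21, a thymocyte-expressed gene for a cAMP-regulated phosphoprotein, with 10, followed by Madd with 8, Ifi27l1 with 7 and Abi1, Tmpo and Wnk1 with 6 each; 430 genes had 1, and 213 cassettes share a junction with another and are not independent. Within Arpp21 the 99 nt exon had inclusion of 78.5% and 81.3% in KO, against 64.4% and 58.5% in WT, and was picked after its values were seen. Its 60 nt exon, by contrast, had 96.4% and 98.5% in KO and 96.1% and 95.6% in WT, and its 105 nt exon had 15.8% and 9.90% in KO and 18.5% and 11.2% in WT. A single gene thus held exons near both ends of the scale. In Madd, which encodes an activator of Rab GTPases, a 9 nt exon had no inclusion read, and 4 cassettes had no skipping read in any library. Tmpo, the gene for the nuclear lamina protein LAP2, included a 96 nt exon at 78.1% and 86.4% in KO and 71.2% and 70.4% in WT.

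Dntt encodes terminal deoxynucleotidyl transferase, which adds bases at antigen receptor joins in thymocytes, and its 60 nt cassette had the most reads of all, 10445 over the 4 libraries. Inclusion was 7.84% (95% interval 6.98 to 8.78) and 11.3% (10.2 to 12.6) in KO, against 4.87% (4.35 to 5.45) and 6.20% (5.59 to 6.85) in WT. Both KO libraries were above both WT libraries, and these Clopper-Pearson intervals, which cover counting error only, did not overlap between groups. Across mice the log2 ratio of inclusion to skipping odds was 0.84 higher in KO (SE 0.71, edgeR adjusted p = 0.963), which did not pass. Second in reads was the 31 nt exon of Cd8a, the coreceptor chain, whose skipping gives the short-tailed form. It had 47.8% (45.5 to 50.2) and 46.4% (44.0 to 48.9) inclusion in KO, against 47.4% (45.3 to 49.6) and 44.4% (42.7 to 46.1) in WT. The groups overlapped, and the log2 odds ratio was 0.07 (SE 0.69).

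No cassette passed the test of KO against WT, which does not show that inclusion was the same. The test could be made for the 530 cassettes with at least 5 reads for each outcome, and the remaining 223 have too few reads of one outcome. It compared inclusion with skipping reads within each library, in edgeR's quasi-likelihood fit over all 6494 triplets that met these minimums, with Benjamini-Hochberg adjustment over all of them. None of the 530 had an adjusted p under 0.05, with 0 percent called over the whole table and a smallest adjusted p of 0.871 among the cassettes. At an unadjusted p under 0.05 edgeR listed 20 cassettes, 12 higher and 8 lower in KO, against a background of 2.02 percent higher and 2 percent lower over all triplets (4.02 percent in either direction); DESeq2 called 0 and listed 10 unadjusted, and limma called 0 and listed 21. Without KO replicate 2 edgeR listed 9.

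Between single libraries, gaps across the groups were close to gaps within them. Over the tested cassettes the median gap was 6.33 to 7.50 points in the 4 pairings of a KO with a WT library, 6.97 points between the KO replicates and 5.38 points between the WT replicates. The median absolute difference between KO and WT means was 5.32 points, and means of 2 libraries vary less than single libraries. Means differed by 10 points or more in 141 cassettes, and replicates did so in 200 cassettes in KO and 172 in WT. The median library inclusion of tested cassettes was 50.0% in both KO libraries, against 45.6% and 43.8% in WT, a difference of 5.31 points (exact permutation p = 0.333, two-sided, the smallest this design allows). The median of the signed differences was 1.35 points higher in KO, beside 0.44 points over all tested triplets. With the read minimum set on mean inclusion reads plus skipping reads, the median over cassettes was 1.08 points, in 462 of them.

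Separation of the groups leaned towards higher inclusion in KO. Both KO values lay above both WT values in 136 of the 530 cassettes, against a background of 20.2 percent of all tested triplets, and below both in 78, against 14.3 percent. As shares these are 25.7% and 14.7% of the cassettes, so the lower side was close to the background and the higher side above it. Requiring means at least 10 points apart left 72 higher, against a background of 7.13 percent, and 33 lower, against 4.88 percent, or 13.6% and 6.23% of the cassettes. Both counts rose whichever library was left out, because fewer values then have to separate. The KO libraries were also the shallower ones, with 37 and 38 reads for the median cassette against 50 and 69 in WT, and the part of depth in these counts was not tested. Other triplets had a median inclusion above 93% in every library, which leaves less room for a difference, and whether the cassettes differ from them was not tested. In 17 of the 530, one group had no read at all for one of the outcomes, so the read minimum was met through the other group alone.

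**Figure D3:**
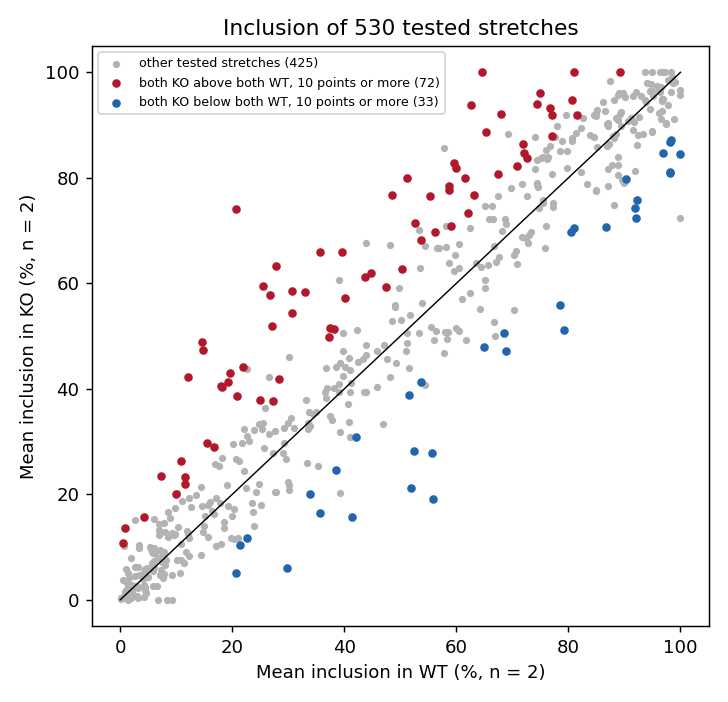
Mean inclusion in KO (vertical axis) against mean inclusion in WT (horizontal axis), in percent, for the 530 tested cassette stretches, with the line of equality. Red points mark the 72 with both KO libraries above both WT libraries and means 10 points or more apart, blue points the 33 below, and grey points the rest.

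Split by position, the 78 tested 5' UTR cassettes had 26 higher and 5 lower in both KO libraries (33.3% and 6.41%), against backgrounds of 20.2 percent higher and 14.3 percent lower over all tested triplets. The same counts were 92 higher and 55 lower for the 360 coding ones (25.6% and 15.3%). For the 63 part coding ones they were 11 higher and 16 lower (17.5% and 25.4%). At an unadjusted p under 0.05 edgeR listed 0 higher and 2 lower among the 5' UTR cassettes. It listed 11 higher and 5 lower among the coding and 1 and 1 among the part coding ones. The background was 2.02 percent higher and 2 percent lower over all tested triplets. An example from the 5' UTR, chosen after its values were seen, is a 31 nt exon of Sipa1, a Rap GTPase-activating protein, with 44.4% and 44.0% in KO and 21.1% and 22.6% in WT. Another 5' UTR example, chosen likewise, is a 50 nt exon of the kinase gene Snrk with 90.5% and 93.5% in KO and 66.1% and 70.0% in WT. Of the 30 cassettes whose included form occurs only in nonsense-mediated decay transcripts and in no protein-coding one, 22 were tested, with 3 higher and 3 lower (13.6% each). Single exons of 51 nt or less gave 18 higher and 10 lower of 78 tested (23.1% and 12.8%).

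The 20 exons named by rule, the 10 smallest p-values in each direction among cassettes whose groups did not overlap, all had an adjusted p of 0.871 in edgeR's test. Among those higher in KO was the stretch of Ptprc that holds exons 4 to 6, whose inclusion gives the longer CD45 forms; it spans chr1:140014331-140019161 on the minus strand in mm9. Its inclusion was 18.6% (12.8 to 26.0) and 28.1% (20.7 to 36.8) in KO, against 5.64% (2.80 to 10.1) and 8.79% (5.42 to 13.4) in WT. The groups did not overlap, and the log2 odds ratio was 1.95 (SE 0.82). Upstream junction reads were 7 and 8 in KO and 0 and 0 in WT, downstream junction reads 26 and 39 in KO and 11 and 21 in WT, and skipping reads 72 and 60 in KO and 92 and 109 in WT. In WT the inclusion values thus rest on the downstream junction alone. Known junctions lie inside this stretch, so these values can include forms that hold only some of its exons. With the upstream junction alone the adjusted p in edgeR's test was 0.257. The CD45.1 allele is listed in the background of all 4 mice, and whether allele differences affect these counts was not tested.

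Another named exon higher in KO, and 2 from the T cell signalling list, belong to surface receptors; none passed the test. Tnfrsf9 encodes the costimulatory receptor 4-1BB, and its 135 nt cassette is the exon for the membrane-spanning segment, which soluble forms lack. It had 40.7% and 57.1% inclusion in KO, against 17.1% and 11.9% in WT, and a log2 odds ratio of 2.50 (SE 1.01). Both KO libraries were more than 20 points above both WT libraries. That separation rests on the downstream junction, with 10 and 16 reads in KO and 11 and 13 in WT. Skipping reads numbered 8 and 6 in KO and 29 and 48 in WT. The upstream junction held at most 1 read in each library, too few to separate the groups alone. For the 75 nt exon of Tgfbr2, the TGF-beta type II receptor, inclusion was 69.2% and 62.5% in KO, against 45.8% and 33.3% in WT (log2 odds ratio 1.51, SE 0.80). Cd6, a receptor that tunes T cell receptor signals, had its 117 nt exon included at 87.0% and 85.8% in KO, against 71.7% and 72.1% in WT (log2 odds ratio 1.31, SE 0.74). In Cd6 replicates differed by less than 2 points in each group while the means differed by 14.5 points, and 1535 reads stood behind the 4 values.

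In Hk1, Dnm1l and Aplp2, WT inclusion was below 2%. Hk1 encodes hexokinase 1, the first enzyme of glycolysis, and its 69 nt exon had 8.57% and 12.0% inclusion in KO, against 0% and 1.52% in WT. Those values rest on 6 and 6 inclusion reads in KO against 0 and 2 in WT, and the 0 in WT replicate 1 allows up to 3.53%. Dnm1l, the GTPase that divides mitochondria, had 16.1% and 11.1% of its 39 nt exon included in KO, against 0% and 1.64% in WT, with a limit of 5.88% for the 0 in WT replicate 1. For the 36 nt exon of Aplp2, an amyloid precursor-like protein, inclusion was 16.7% and 4.76% in KO, against 0% and 0.935% in WT. In this exon the KO replicates lay farther apart than KO replicate 2 lay from WT. Mtmr2, a phosphoinositide phosphatase gene, included a 105 nt part-coding exon at 83.3% and 64.7% in KO, against 28.0% and 13.5% in WT, on 62 reads in all, and no other named exon had a wider difference (53.3 points).

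Gpbp1 encodes a GC-rich promoter-binding protein, and its 60 nt exon with the CA repeat had 56.5% and 75.4% inclusion in KO, against 40.7% and 30.5% in WT. Its junctions were uneven, with 5 and 5 upstream reads in KO and 1 and 1 in WT beside 124 to 130 downstream reads in every library. Skipping reads numbered 52 and 21 in KO and 94 and 149 in WT. The other 3 exons higher in KO were skipped in no KO read. Zfp207, a spindle-assembly zinc finger gene, included its 48 nt exon at 100% in both KO libraries, against 97.4% and 95.4% in WT, where 3 and 7 skipping reads were found; 0 in KO allows up to 4.32% and 3.08% skipping. For the 126 nt exon of Ccdc58 inclusion was 100% in both KO libraries and 84.2% and 77.8% in WT. Skipping reads numbered 3 and 5 in WT. The limits on skipping in KO were 15.4% and 10.5%, both below the skipping measured in either WT library. The exact intervals overlapped, however. That of KO replicate 1 began at 80.9% inclusion, and that of WT replicate 1 ran from 62.5 to 96.5%. The 66 nt exon of the kinase gene Tec had 100% in both KO libraries, against 40.7% and 88.6% in WT, and WT replicate 1 supplied 8 of the 10 skipping reads. In Tec the limits on skipping in KO were 24.0% and 23.1%. For Zfp207 both KO limits exceeded the skipping in WT replicate 1, and for Tec both exceeded that in WT replicate 2, so a difference from those libraries was not detectable at this depth.

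**Figure D4:**
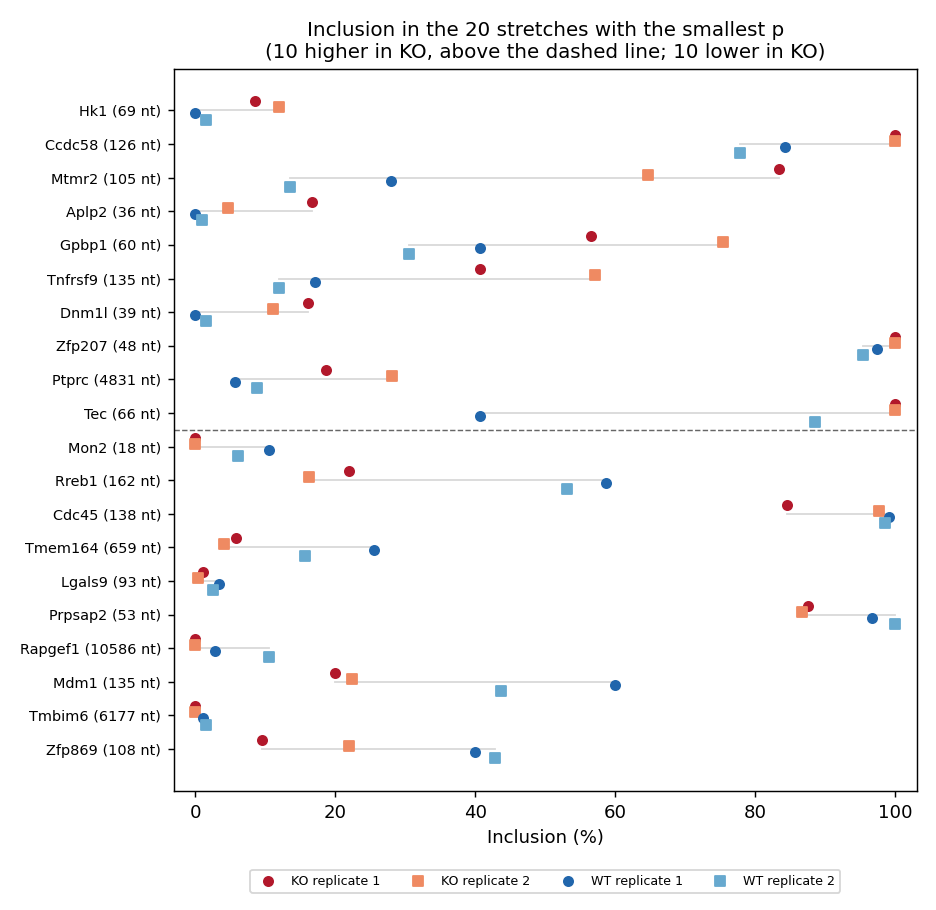
Inclusion in percent (horizontal axis) in each library for the 20 stretches named by rule, with KO points above WT points in each row and a grey line from the lowest to the highest value. The 10 rows above the dashed line have both KO libraries higher than both WT libraries, as in Tnfrsf9 with 40.7% and 57.1% against 17.1% and 11.9%; the 10 rows below have them lower.

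Among exons less included in KO, the 162 nt exon of Rreb1, a Ras-responsive zinc finger factor, had 22.0% (9.87 to 40.3) and 16.3% (6.42 to 32.8) inclusion in KO, against 58.6% (34.8 to 81.4) and 53.1% (39.2 to 67.3) in WT. The log2 odds ratio was -2.38 (SE 0.99), and replicates differed by under 6 points in each group. Mdm1, a centriole and microtubule-binding protein gene, had 20% and 22.4% of its 135 nt exon included in KO, against 60.0% and 43.7% in WT. An X-linked 659 nt part-coding exon of Tmem164 had 5.88% and 4.17% in KO, against 25.5% and 15.7% in WT. In all 3 exons the WT replicates stood above both KO replicates by 9 points or more. A 108 nt stretch of the zinc finger gene Zfp869, which matched no annotated exon, had 9.52% and 22.0% in KO, against 40% and 42.9% in WT.

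Smaller shifts towards skipping were seen in exons close to an end of the scale. Cdc45, a subunit of the replicative helicase, included its 138 nt exon at 84.5% and 97.6% in KO, against 99.1% and 98.5% in WT. KO replicate 1, with 10 skipping reads, made most of that difference. Prpsap2 encodes a partner of the enzyme that makes the nucleotide precursor PRPP. Its 53 nt exon had inclusion of 87.5% and 86.7% in KO, against 96.6% and 100% in WT. Those values rest almost wholly on the downstream junction, with 40 and 39 reads in KO and 55 and 86 in WT. Upstream reads numbered 2 and 0 in KO and 2 and 1 in WT. Skipping reads were 3 and 3 in KO and 1 and 0 in WT. Lgals9 encodes the lectin galectin-9, and its 93 nt exon in the linker between the sugar-binding domains had 1.19% and 0.386% in KO, against 3.48% and 2.57% in WT, on 5 and 2 inclusion reads in KO and 23 and 22 in WT.

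Finally 3 named stretches had no inclusion read in KO. The 18 nt exon of Mon2, which acts in endosome-to-Golgi traffic, had 32 and 29 skipping reads in KO, which allow inclusion of up to 4.48% and 4.92%, against a measured 10.5% (4.49 to 20.6) and 6.19% (2.47 to 12.7) in WT. Both WT values lay above both limits, on 8 and 7 inclusion reads. The exact intervals reached 5.76% and 6.35% in KO, however, and so overlapped those of WT. The bound of KO replicate 2 lay above the value of WT replicate 2. A 3-exon stretch of Rapgef1, an activator of the GTPase Rap1, had limits of 5.66% and 13.0% in KO, against a measured 2.86% and 10.5% in WT, both within the limit of KO replicate 2, and the direction turned with the upstream junction alone, as that junction had no read in any library. Tmbim6, the gene for Bax inhibitor 1, had limits of 2.61% and 2.56% in KO, against a measured 1.19% and 1.62% in WT, in a stretch that matched no annotated exon, so the difference was not detectable at this depth.

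Genes of the splicing machinery held 20 of the cassettes, in 16 genes, and 19 were tested, of which 4 were higher and 6 lower in both KO libraries (21.1% and 31.6%, against backgrounds of 20.2 percent higher and 14.3 percent lower over all tested triplets). None was called (edgeR; 0 also at an unadjusted p under 0.05). Their median difference was 2.76 points, against 1.35 over all tested cassettes. Hnrnpa2b1, an hnRNP that like hnRNP L binds nascent transcripts, included its 120 nt exon at 66.4% and 68.8% in KO, against 74.5% and 71.0% in WT. Raly, another hnRNP, included its 48 nt exon at 3.85% and 6.04% in KO, against 8.33% and 7.34% in WT. Its 83 nt 5' UTR exon had 77.7% and 78.8% in KO and 76.2% and 73.0% in WT. Celf1, a CUG-binding regulator, had 36.1% and 25.7% of a 152 nt exon included in KO, against 40.2% and 43.9% in WT. These groups did not overlap, and each difference was at most 11.1 points. The 141 nt exon of Hnrnpab had 34.4% and 39.9% in KO, against 41.2% and 40% in WT, a gap between groups narrower than that between the KO replicates.

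Srsf3 shows how much 1 library can weigh. It encodes an SR protein, and its 456 nt exon occurs only in nonsense-mediated decay transcripts, a known way in which the gene limits its own output. Inclusion was 21.1% (16.7 to 26.0) and 19.6% (14.9 to 25.2) in KO, against 57.7% (49.1 to 66.3) and 20.5% (17.1 to 24.4) in WT. Only WT replicate 1 stood apart, and without it the difference was -0.22 points, against -18.8 points with it. The 36 nt exon of Srsf7, another SR protein, had 82.7% and 80.9% in KO and 80.9% and 78.7% in WT. The 33 nt exon of Tia1, a U-rich RNA-binding regulator, had 79.6% and 54.5% in KO and 56.3% and 52.5% in WT, with KO replicate 1 apart.

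T cell receptor and cytokine signalling genes held 16 cassettes in 13 genes, 8 of them tested, with 4 higher and 0 lower in both KO libraries (50% and 0%, against backgrounds of 20.2 percent higher and 14.3 percent lower over all tested triplets). In edgeR's test 0 were called, and at an unadjusted p under 0.05 it listed 1 higher, Ptprc, and 1 lower, Pik3cd. Besides Ptprc, Tgfbr2 and Cd6 described above, Pik3cd, the lymphocyte PI3-kinase catalytic subunit, had a 175 nt 5' UTR exon with inclusion reads in WT replicate 2 alone, at 18.6% there, and none in the other 3 libraries. Untested cassettes stood at the end of the scale. Vav1, an exchange factor downstream of the T cell receptor, included its 117 nt exon at 99.5% and 99.1% in KO and 100% in both WT libraries, on 2312 reads. A stretch in Cd247, the zeta chain, was included at 100% in both KO libraries and 100% and 99.5% in WT.

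Lymphoid transcription and chromatin genes held 12 cassettes in 7 genes, 9 of them tested, with 2 higher and 3 lower in both KO libraries (22.2% and 33.3%, against backgrounds of 20.2 percent higher and 14.3 percent lower over all tested triplets) and 0 called (edgeR; 0 also at an unadjusted p under 0.05). Ikzf1 encodes Ikaros, and its 261 nt exon lies among the zinc finger exons. It had 68.3% (61.1 to 75.1) and 73.1% (65.3 to 80.2) inclusion in KO, against 95.8% (92.1 to 98.2) and 77.7% (73.0 to 82.0) in WT. WT replicate 1 was again the library apart, and the difference of -16.1 points was -6.99 points without it. Ets1, a T lineage factor, included a 261 nt exon at 80.3% and 83.0% in KO, against 86.1% and 87.9% in WT. Bcl11b, a factor of T cell commitment, included a 216 nt exon at 28.0% and 24.7% in KO, against 23.7% and 18.6% in WT. Hdac7, a histone deacetylase of thymocytes, had 41.5% and 36.3% of a 111 nt exon included in KO, against 55.2% and 48.0% in WT, but the difference was 7.15 points with the upstream junction alone and -20.7 points with the downstream one. A 2-exon stretch of Hdac7 had 95.6% and 96.7% in KO, against 87.3% and 90.9% in WT, a difference of 7.07 points that was 27.9 points with the upstream junction alone and 3.95 points with the downstream one.

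**Figure D5:**
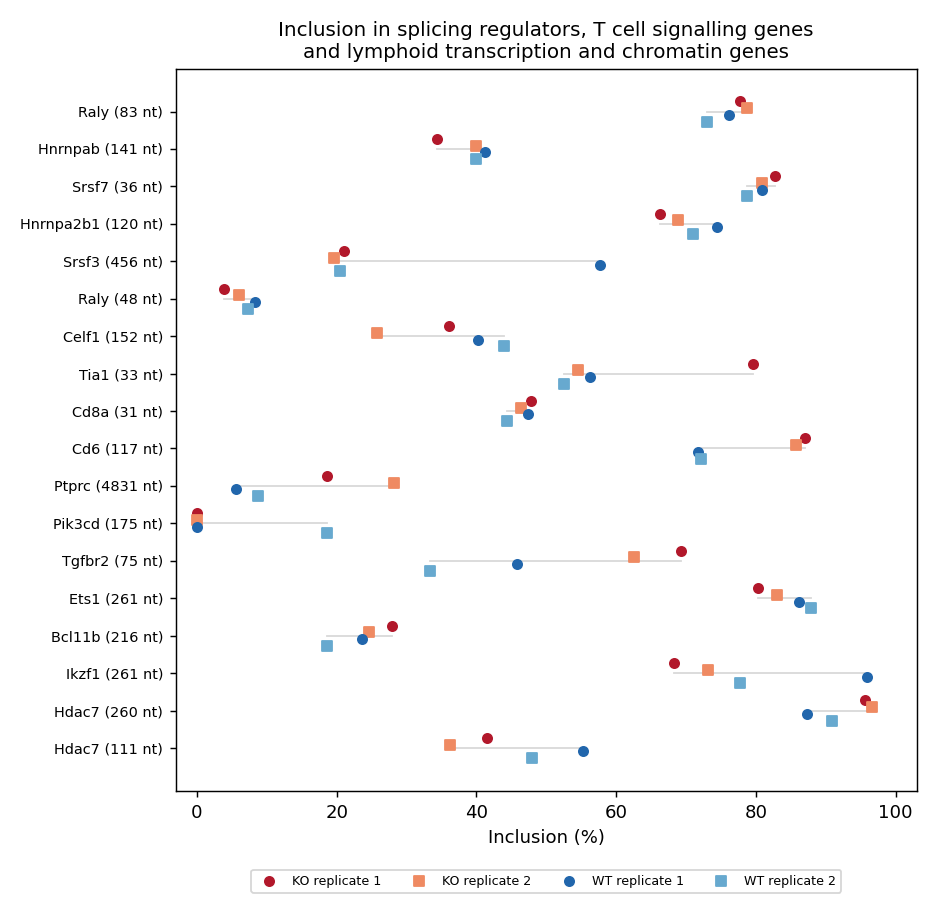
Inclusion in percent (horizontal axis) in each library for the tested cassettes named from the splicing, T cell signalling and lymphoid transcription lists, KO points above WT points. Srsf3 and Ikzf1 have WT replicate 1 apart at 57.7% and 95.8%, and Cd6 has both KO points near 86% and both WT points near 72%.

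Actin, adhesion and migration genes held 14 cassettes in 7 genes, 8 of them tested, with 1 higher and 3 lower in both KO libraries (12.5% and 37.5%, against backgrounds of 20.2 percent higher and 14.3 percent lower over all tested triplets), overlapping stretches of Arhgef1 among the lower, and 0 called (edgeR; 0 also at an unadjusted p under 0.05). Arhgef1 had a 168 nt exon included at 12.5% and 11.1% in KO, against 24.1% and 21.2% in WT. Macf1, which links actin to microtubules, had a 5-exon stretch at 28.5% and 20.7% in KO, against 42.5% and 34.5% in WT. In both genes the downstream junction carried the difference, which was -17.3 points in Arhgef1 and -20.9 points in Macf1 with it alone, and 0.52 and -7.25 points with the upstream one. Arpc4, a subunit of the actin-nucleating Arp2/3 complex, included its 119 nt exon at 95.9% and 95.3% in KO and 92.7% and 97.5% in WT. The apoptosis list held 1 cassette, a 90 nt exon of the BH3-only gene Bcl2l11 with 100% and 91.4% in KO and 92.1% and 85.5% in WT. The metabolism list held 2, both with overlapping groups, among them a 30 nt exon of the ATP citrate lyase gene Acly with 74.8% and 53.2% in KO and 78.2% and 56.1% in WT.

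The CA repeat motif, ACACAC or CACACA on the transcript strand, was found in 38 of 618 distinct single-exon cassettes (6.15%), the same share as in all internal exons of protein-coding transcripts (6.15% of 180116). Between 50 and 150 nt it was found in 6.33% of 395 cassettes and 4.19% of 112416 internal exons. Overlapping matches count once per exon, and the complementary strand held it in 4.53% of the cassettes and 7.18% of internal exons. Among the 29 tested cassettes with the motif, 8 were higher and 2 lower in both KO libraries (27.6% and 6.90%, against backgrounds of 20.2 percent higher and 14.3 percent lower over all tested triplets), with Hk1 and Gpbp1 among the higher. Over all tested cassettes the shares were 25.7% and 14.7%. The neighbouring introns were not searched.

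Expression of the host genes gave a readout apart from the junction ratios. Of 546 host genes, 545 were tested with edgeR's quasi-likelihood test on transcript counts, and 0 had an adjusted p under 0.05, against 0.00728 percent of all genes tested. At an unadjusted p under 0.05, 25 were higher and 18 lower in KO, against a background of 6.29 percent higher and 3.61 percent lower. DESeq2 called 0 host genes, although over the whole table it called more genes than edgeR did. Calls changed with the library left out, for host genes and for all genes alike. Those fits leave a single mouse in a group, so nothing was concluded from their calls. The 91 tested hosts of cassettes whose groups stood 10 points or more apart had 0 calls, 3 higher and 4 lower at that unadjusted level. Among the 20 named exons the host log2 fold changes ran from -0.45 (SE 0.18) in Tnfrsf9 to 0.39 (SE 0.13) in Dnm1l, and Ptprc had -0.10 (SE 0.17).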

How the data were processed

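Total thymocyte RNA of 2 KO and 2 WT mice was sequenced after ribosomal RNA depletion, per the labels' protocols. The authors deposited, per library, raw read counts for exon junctions (known or putative) and raw read counts per RefSeq transcript, with the deposited ratio of reads to length and RPKM, which were not tested. Per the submitters' processing notes the build is mm9. The sources used here name neither an aligner nor a strand setting, so overlapping genes on opposite strands may share reads.

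Junctions of 1 gene and strand were joined into triplets. Inclusion reads (2 junctions summed) and skipping reads were tested with edgeR 4.0.16 (robust quasi-likelihood fit, a term per library, R 4.3.3) over all 6494 triplets with 10 or more reads in every library and 5 or more of each outcome; DESeq2 1.42.0 and limma 3.58.1 (0.5 added to each count before log2) were alternatives. Host genes were tested with edgeR on the transcript of each symbol with the highest total, with TMM scaling; 1 of 13733 genes passed. Calls needed an adjusted p under 0.05, and the exon test was checked on simulated data. Intervals are exact (Clopper-Pearson, 95%), computed on reads of both inclusion junctions and the skipping junction and carried to the inclusion scale; a count of 0 is taken to allow 3 reads per library, also carried to the inclusion scale. Neither covers more than counting error, because reads include PCR copies. Exons were matched to GENCODE M21 by chromosome, strand, length and flanking introns; 653 of 724 matches carried the same symbol.

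Members and lists were chosen with earlier results of these data known. Exons named are the 10 smallest p-values per direction among tested cassettes whose groups did not overlap. To these are added, per gene list, up to 4 with most reads and up to 4 with the smallest p. Others are marked as chosen after their values were seen. Replicate numbers were not taken to pair the mice.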

Additional observations from a re-analysis of the deposited data

How the results depend on the processing

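No cassette passed the adjusted p of 0.05 under any alternative run. Of all triplets tested 0 passed, but 2 did with the upstream junction alone, 2 when triplets with a known junction inside were left out, and 0 to 12 when 1 library was left out, with 12 without WT replicate 1. The 20 cassettes at an unadjusted p under 0.05 were 10 in DESeq2, 0 with no read minimum and 9 to 21 with 1 library left out, the 9 without KO replicate 2. The replicate number as a block gave 21 such cassettes and 0 calls, and 0 host genes called; the deviations of same-numbered libraries correlated at 0.04 over the cassettes and 0.26 over genes. Host gene calls ranged from 0 to 16 with 1 library left out, with 16 without KO replicate 1 and 1 without WT replicate 2. Counts with groups 10 points or more apart, an alternative set added after seeing the data, ranged from 95 to 119 higher and from 38 to 67 lower with 1 library left out, since fewer values then have to separate. The median difference over cassettes ranged from 0.639 to 1.96 points with 1 library left out. Of 20 named exons, Rapgef1 reversed to a log2 odds ratio of 0.54 with the upstream junction alone (adjusted p = 1), where it has no read; adjusted p-values over all alternatives lay between 0.257, in Ptprc, and 1. Low reads limit most values: the median cassette had 37 to 69 reads per library.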
